A study of Mus musculus with 30 samples.

Results

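The C-type lectin (Clec) family was read as every gene whose symbol starts with Clec and a digit. There were 31 such genes, 30 among the 19470 entries of the lung table and 30 among the 18845 entries of the spleen table, with Clec18a in the lung table and Clec2f in the spleen table alone. No member was listed more than once. Messenger RNA had been sequenced from lungs and spleens of C57BL/6 mice aged 8 weeks, in 3 genotypes: wild type, a lincRNA-Cox2 mutant line and a lincRNA-Cox2 knockout line. LincRNA-Cox2 is a long noncoding RNA next to Ptgs2, the gene of cyclooxygenase 2; how the alleles were made is not given in the sources used here. The LPS groups had received lipopolysaccharide, a component of the bacterial outer membrane, into the peritoneum at 20 mg/kg, 6 h before the tissue was taken, and the control groups are labelled PBS. Each genotype had 3 LPS and 2 PBS libraries per tissue, 30 in all.

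Clec proteins carry a C-type lectin-like domain, a fold that in some members binds sugars with calcium and in others binds proteins or lipids. Many are receptors of macrophages, neutrophils and dendritic cells. One group activates the kinase Syk, through the adaptors FcR gamma (Fcer1g) and DAP12 (Tyrobp) or through its own hemITAM motif, and signals on through Card9, Bcl10 and Malt1. Another group carries ITIM motifs that recruit inhibitory phosphatases. Further members mark endothelium, serve as ligands of the NKR-P1 receptors of natural killer cells, or are secreted.

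Most of the family lies in a few stretches of mouse chromosome 6, where 24 of the 31 genes were found (mm10, GENCODE M21). A Clec4 cluster of 9 genes spans chr6:122921848-123289870, a Clec2 cluster of 6 spans chr6:128662385-129186534, and 6 further genes from Clec12a to Clec7a span chr6:129342691-129472779. Clec4a1 opens the Clec4 cluster, and Clec4d and Clec4e close it. These 3 genes stood at least 6.69-fold higher with LPS in lung in every genotype, so the 250 bases before their RefSeq start sites (GRCm38.p6, the same assembly) are shown. They are written 5′ to 3′ on the gene's strand. Capitals mark GAGGAA, the core of PU.1 sites, and TTGCNNAA, the core of C/EBP sites, each on either strand (a match on the other strand to GAGGAA reads TTCCTC).
Clec4a1 chr6:122921598-122921847 (+ strand): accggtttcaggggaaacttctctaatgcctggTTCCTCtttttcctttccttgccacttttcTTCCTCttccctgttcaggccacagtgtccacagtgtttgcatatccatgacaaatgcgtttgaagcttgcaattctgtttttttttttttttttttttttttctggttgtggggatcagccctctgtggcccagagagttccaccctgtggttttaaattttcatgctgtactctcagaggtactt
Clec4d chr6:123261857-123262106 (+ strand): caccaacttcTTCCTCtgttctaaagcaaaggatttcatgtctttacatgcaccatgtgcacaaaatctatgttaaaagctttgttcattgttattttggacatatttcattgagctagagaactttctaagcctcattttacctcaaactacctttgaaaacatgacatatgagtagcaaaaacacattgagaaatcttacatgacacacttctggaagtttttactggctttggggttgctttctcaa
Clec4e chr6:123289872-123290121 (- strand): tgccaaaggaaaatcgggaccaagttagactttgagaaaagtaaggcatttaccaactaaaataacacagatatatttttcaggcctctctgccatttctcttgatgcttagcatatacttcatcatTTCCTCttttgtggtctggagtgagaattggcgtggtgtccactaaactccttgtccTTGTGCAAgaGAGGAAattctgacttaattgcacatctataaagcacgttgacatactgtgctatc
All 3 windows held GAGGAA, 2 matches in Clec4e, 1 in Clec4d and 2 in Clec4a1, and that of Clec4e also held TTGCNNAA. Of the 25 members with a RefSeq promoter entry 13 (52.0%) held GAGGAA in this window, against 23.1% of 27025 promoters of the same length. TTGCNNAA was found in 4 of the 25 (16.0%), against 9.55%. Members on both sides of the response held GAGGAA, among them Clec14a and Clec11a, which stood lower with LPS in lung. A match is a description of letters and not a binding site; Clec1a, Clec2f, Clec3b, Clec4a4, Clec4n and Clec10a had no entry.

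All levels are the authors' group means in normalized counts. The deposited tables hold no library values, so no spread between replicates can be given. Where a sentence gives values for the 3 genotypes without naming them, the order is wild type, mutant, knockout, and in each pair PBS comes before LPS. LPS and PBS are compared as the log2 ratio of the means plus 1, without a test. A member counts as apart at 2-fold, among those whose PBS or LPS mean reached 10. Between genotypes, a call is an adjusted p under 0.05 in the authors' deposited table. In bulk tissue fewer cells of a type and less RNA per cell cannot be told apart.

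The tables carried the labelled tissues and, in lung, the loss of the targeted RNA. Markers of alveolar epithelium summed to between 80410 and 114610 in the lung groups and between 750 and 1315 in the spleen groups, and B cell markers to between 702 and 1779 in lung and between 4990 and 15441 in spleen. LincRNA-Cox2 was at 30.2 and 34.8 in wild type lung with LPS and PBS and at 0 in both lines. In spleen it was near the floor even in wild type, at 3.53 with LPS and 2.13 with PBS. There it was at 0 in the mutant, and at 0.322 with LPS and 0 with PBS in the knockout. Sex-linked genes did not match between groups. In lung Xist was at 14.5 and 23.2 in wild type and knockout with LPS, at 4510 in the mutant with LPS, and between 1910 and 3660 with PBS, and the Y-linked Ddx3y was at 1150 in wild type, 1130 in knockout and 4.73 in mutant lung with LPS and between 294 and 447 with PBS. Spleen had the same arrangement, with Xist at 31.3 in wild type, 33.7 in knockout and 4670 in mutant spleen with LPS. Treatment and sex-linked expression therefore cannot be told apart in the LPS ratios, nor genotype and sex-linked expression where the mutant LPS group is compared. Markers of other organs moved too: hepatocyte markers summed to 706, 1106 and 4533 in wild type, mutant and knockout lung with LPS. Skeletal muscle markers summed to 3995 with PBS and 908 with LPS in knockout lung, against 73.8 to 94.7 in the other lung groups. Pancreatic acinar markers summed to 1110 with PBS and 63.7 with LPS in wild type lung, with 11 of 11 at least 2-fold lower, and to between 70.8 and 245 in the lines. The part of these organs in the values below was not tested.

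Per kb of exon, Clec2d led the family in all 12 groups. The lengths are of all GENCODE M21 exons of a gene, and the gene models that the authors counted may differ. By mean alone Clec14a was above Clec2d in lung with PBS, at 4110 against 1670 in wild type. In wild type lung with PBS Clec2d stood at 1377 normalized counts per kb, followed by Clec14a at 899, Clec3b at 509, Clec1a at 268 and Clec7a at 136. In knockout lung with PBS Clec2d was at 1121 per kb and Clec14a at 1022. With LPS the order per kb became Clec2d at 2159.9, Clec4d at 632, Clec4a1 at 469, Clec4e at 242 and Clec4a3 at 189. In wild type the listed places behind Clec2d thus passed from mostly endothelial and secreted members to myeloid receptors, with Clec3b at rank 6 (178). In mutant lung with LPS Clec3b was at rank 4 (276), before Clec4e (246). In wild type spleen with PBS Clec2d at 546 per kb was followed by Clec4n at 214 and Clec4a1 at 186. In each tissue 8 members had a mean under 10 in every group. In lung these were Clec2e, Clec2g, Clec2h, Clec2l, Clec4a4, Clec4b2, Clec4f and Clec18a, with means from 0 to 6.38. In spleen they were Clec2e, Clec2f, Clec2g, Clec2h, Clec2l, Clec4b2, Clec4f and Clec12b, with means from 0 to 5.61. A few others stayed low as well: in lung Clec4g ran from 2.98 to 13.3 and Clec10a from 16.6 to 39.9 over the 6 groups, and in spleen Clec1a from 8.33 to 15.7 and Clec11a from 9.08 to 26.

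**Figure D1:**
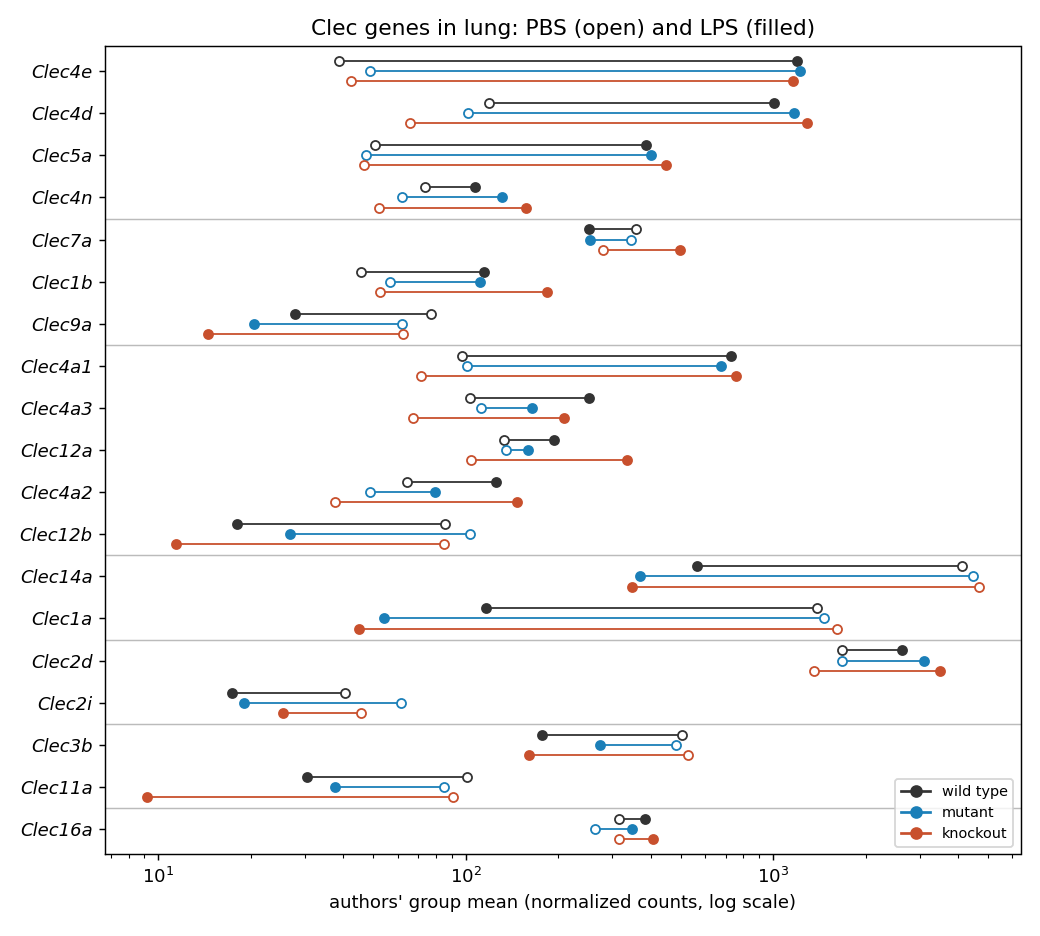
Authors' group means (normalized counts, log scale) in lung of the 19 Clec genes described gene by gene, with PBS (open) and LPS (filled); black is wild type, blue the mutant, red the knockout, and lines part the roles. Clec4e, Clec4d, Clec5a and Clec4a1 lie far to the right with LPS, Clec14a and Clec1a far to the left.

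In lung Clec4e and Clec4d, receptors coupled to Syk by an adaptor, had the largest ratios upward in each genotype. Clec4e (Mincle), a receptor for the mycobacterial cord factor, had a mean of 38.7 with PBS and 1200 with LPS in wild type, 49 and 1220 in mutants, and 42.4 and 1160 in knockouts. This was 31.0-, 24.9- and 27.4-fold, the highest ratio of the family in each genotype. Clec4d (MCL), which pairs with Mincle, went from 119 to 1010 in wild type, from 102 to 1170 in mutants and from 65.7 to 1290 in knockouts. Clec5a (MDL-1), a partner of DAP12, went from 50.8 to 387, from 47.4 to 400 and from 46.6 to 449. For each of these 3 genes every LPS mean lay above every PBS mean. Clec4n (Dectin-2), a receptor for fungal mannans, differed less: 73.7 and 107 in wild type, 62.1 and 131 in the mutant, 52.4 and 157 in knockouts. Clec4b1, of the same role, was low and lower with LPS in each genotype, 10.5 and 5.73, 8.37 and 3.71, and 6.88 and 4.85, within 2-fold in wild type and with both means under 10 in the lines.

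The members with a hemITAM did not share a direction in lung. Clec7a (Dectin-1), the receptor for fungal beta-glucans, had means of 359 with PBS and 252 with LPS in wild type and 344 and 253 in the mutant, but 279 and 499 in knockouts. Clec1b (CLEC-2), the podoplanin receptor of platelets, went from 45.8 to 115, from 56.7 to 111 and from 52.8 to 184. Clec9a (DNGR-1), which detects dead cells on conventional type 1 dendritic cells (cDC1), was lower with LPS in each genotype: 77.3 and 27.9, 62.2 and 20.5, and 62.4 and 14.5. Clec1b was thus higher and Clec9a lower in all 3 genotypes, while Clec7a split by genotype. Platelet markers were at least 2-fold higher in 10, 10 and 11 of 12 in the 3 genotypes and lower in 1, 0 and 1. Their sums were nearly level, at 5478 and 5876, 6028 and 5904, and 6213 and 5816. Of the 9 cDC1 markers 3 were higher and 2 lower in each. The cDC1 sums went from 4892 to 6372, from 4437 to 7034 and from 4881 to 6217. The 3′ end of Clec1b overlaps the start of Clec9a on the same strand, so reads there are uncertain.

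Of the 5 DCIR genes and ITIM receptors with a mean of at least 10 in lung, 2 were at least 2-fold higher with LPS in wild type, 1 in mutants and 4 in knockouts, and 1 was lower in each. Clec4a1, a DCIR gene, went from 96.9 to 730 in wild type, from 101 to 676 in mutants and from 71.3 to 757 in knockouts. Clec4a3, its near neighbour, had means of 103 and 251, 112 and 164, and 67.4 and 209. Clec4a2, which carries an ITIM, stood at 64.5 and 125, 48.7 and 79.3, and 37.5 and 147. Of these Clec4a1 passed 2-fold in each genotype, Clec4a3 in wild type and knockout, and Clec4a2 in knockouts. Clec12a (MICL), an inhibitory receptor for uric acid crystals, went from 133 to 193, from 135 to 159 and from 104 to 335. Clec12b, another ITIM receptor, went the other way, from 85.6 to 18, from 103 to 26.9 and from 85.2 to 11.4. The Clec4a and Clec4b genes are similar in sequence, and reads shared among them make their single values uncertain.

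The endothelial members Clec1a and Clec14a had the largest ratios downward, while the low Clec4g had log2 ratios of -0.86, -0.16 and -1.85. Clec14a, an endothelial receptor that binds multimerin 2, had means of 4110 with PBS and 567 with LPS in wild type, 4480 and 370 in mutants, and 4670 and 347 in knockouts. Clec1a, found on endothelium and dendritic cells, went from 1390 to 116, from 1460 to 54.1 and from 1610 to 44.8, which is 12.0-, 27.0- and 35.9-fold lower. Every LPS mean of both genes lay below every PBS mean. Among 14 endothelial markers 8, 9 and 9 were at least 2-fold lower and 0, 0 and 1 higher in the 3 genotypes. Their median ratios were -1.37, -1.42 and -1.87 (log2), and no marker was at 0. Their sums differed less, going from 45981 to 35110, from 48943 to 35736 and from 52240 to 32095. Mmrn2, the gene of multimerin 2, went from 515 to 216 in wild type, from 625 to 206 in mutants and from 642 to 178 in knockouts. The part of the endothelial markers' movement in the Clec14a and Clec1a ratios was not tested.

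Ligands of NKR-P1 receptors and secreted members made up most of the rest. Clec2d (Clr-b), a ligand on most blood cells, went from 1670 to 2620 in wild type, from 1670 to 3100 in mutants and from 1360 to 3490 in knockouts. Clec2i (Clr-g) was lower: 40.5 and 17.4, 61.6 and 19, and 45.6 and 25.4. Clec3b (tetranectin), which binds plasminogen, stood at 505 and 177, 484 and 274, and 528 and 161. So Clec2d passed 2-fold in the knockout alone, and Clec3b was within 2-fold in the mutant. Clec11a, a growth factor of bone and blood progenitors, went from 101 to 30.5, from 84.7 to 37.6 and from 90.6 to 9.19. Clec16a, an endosomal regulator of mitophagy that is no typical lectin, stayed between 264 and 406 in all 6 groups.

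Counted over lung, 6 of 21 members with a mean of at least 10 were at least 2-fold higher and 8 lower in wild type, 5 and 7 of 20 in mutants, and 10 and 7 of 21 in knockouts. Over all genes the shares were 13.9% higher and 14.3% lower in wild type, 15.5% and 16.0% in mutants, and 16.9% and 17.7% in the knockout. The members' shares, 28.6% and 38.1%, 25.0% and 35.0%, and 47.6% and 33.3%, were above these in both directions. The 20 members with a mean of at least 10 over all 15 lung libraries had median log2 ratios of 0.40, 0.31 and 1.10, beside -0.02, -0.01 and -0.01 for all genes under that filter. In all 3 genotypes Clec4a1, Clec4d, Clec4e and Clec5a were higher and Clec1a, Clec9a, Clec11a, Clec12b and Clec14a lower. Neutrophil markers were higher in the same groups: 11, 10 and 10 of 11 measured were at least 2-fold higher, none was at 0, and their sum went from 4248 to 55333, from 4290 to 63816 and from 3519 to 67503. Their part in the myeloid members' ratios was not tested.

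**Figure D2:**
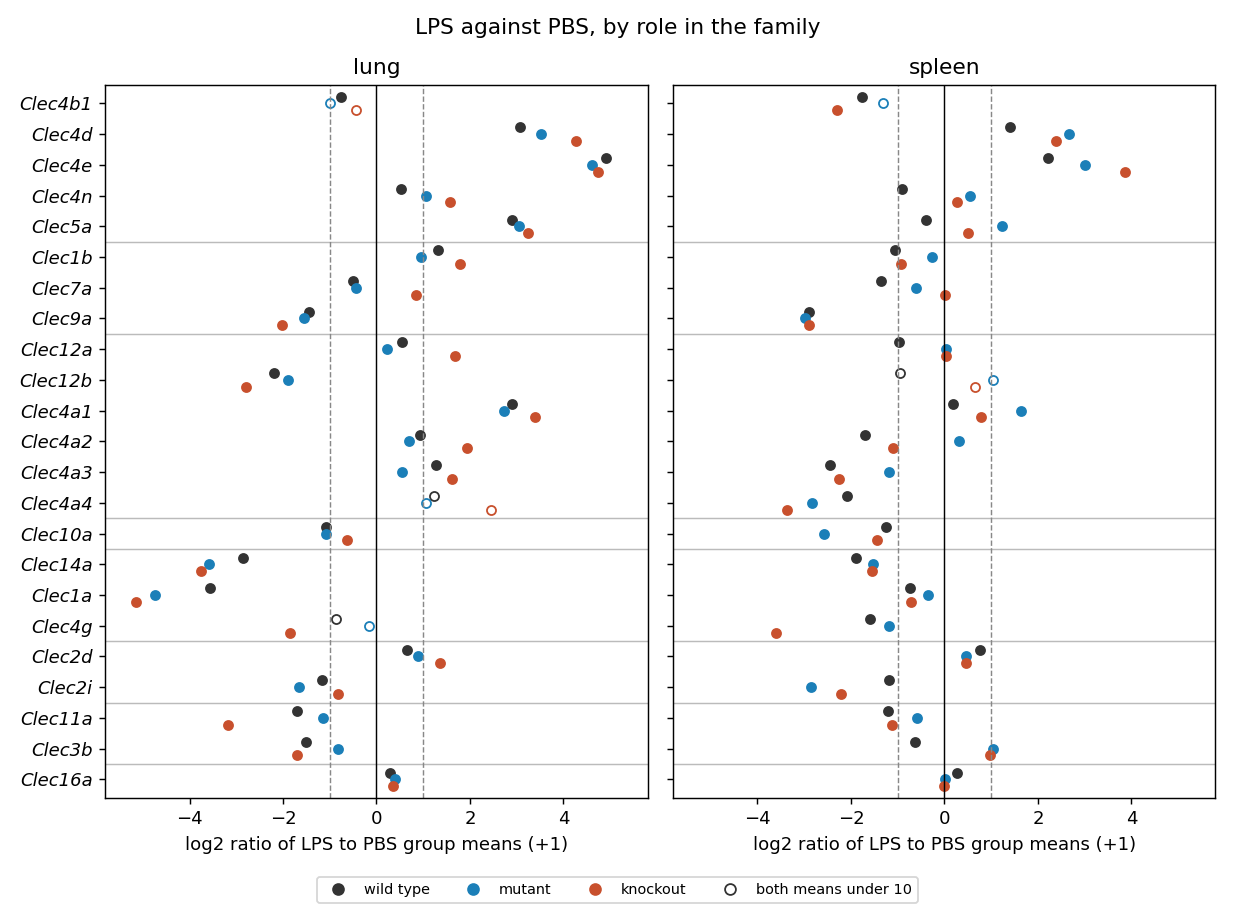
Log2 ratio of the LPS mean to the PBS mean (each plus 1) for each Clec gene named in either tissue, in lung (left) and spleen (right), grouped by role; black is wild type, blue the mutant, red the knockout, open points have both means under 10, and dashed lines mark 2-fold. Clec4d and Clec4e lie right of 2-fold and Clec9a and Clec14a left of it in both tissues and all 3 genotypes.

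In spleen Clec4e and Clec4d again had the largest ratios upward, and more members were lower than higher in each genotype. Clec4e had means of 50.2 with PBS and 237 with LPS in wild type, 31.6 and 259 in mutants, and 17.6 and 271 in knockouts. Clec4d went from 63.2 to 170, from 31.6 to 207 and from 36.8 to 196. Both passed 2-fold in each genotype, with LPS means close together and PBS means highest in wild type. Clec5a had 53.7 and 40.8 in wild type, 33.3 and 79.3 in mutants and 27.2 and 39.1 in knockouts. Clec4n had 304 and 161, 228 and 333, and 250 and 299. These 2 genes were lower with LPS in wild type and higher in both lines, past 2-fold only for Clec5a in the mutant. Clec4b1, a DCAR gene that also couples to FcR gamma, was low: 15.7 and 3.89, 6.39 and 1.98, and 19.5 and 3.17.

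Dendritic cell members of spleen were lower. Clec9a went from 131 to 16.7 in wild type, from 158 to 19.2 in mutants and from 166 to 21.5 in knockouts, 7.84-, 8.23- and 7.72-fold. Clec4a4 (DCIR2), an ITIM receptor of the other conventional dendritic cell subset, went from 16.7 to 3.2, from 17.1 to 1.54 and from 25 to 1.54. Both genes were lower in every genotype. Of 9 cDC1 markers 5 were at least 2-fold lower and 2 or 3 higher in each genotype, none at 0. Their sums were higher with LPS, going from 3111 to 4145, from 3751 to 4074 and from 3671 to 5189. Of 9 markers of the other subset, 4, 3 and 3 were lower and 2, 0 and 1 higher. The sums of these were 3338 and 3414, 3166 and 3103, and 3528 and 3343. The part of either list in the Clec9a and Clec4a4 ratios was not tested. Clec7a stood at 161 and 62.5, 114 and 74.3, and 125 and 126, and Clec1b at 132 and 62.6, 130 and 108, and 129 and 67.9. Platelet markers were at least 2-fold lower in 5, 0 and 0 of 12 and higher in 0, 1 and 0.

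Among the DCIR and ITIM genes of spleen, Clec4a3 took the opposite direction from lung in each genotype. Clec4a4 did too, but its lung means were under 10. Clec4a2 did so in wild type and knockout, and Clec12a in wild type. Clec12b did so in both lines, with spleen means under 10. Clec4a3 went from 127 to 22.4 in wild type, from 70.8 to 30.6 in mutants and from 108 to 21.8 in knockouts. Clec4a2 had 133 and 40, 73.1 and 91.3, and 89.6 and 41.6. Clec4a1 had 290 and 331, 144 and 448, and 189 and 325. Clec4a3 was thus lower with LPS in each spleen genotype and higher in each lung genotype, and Clec4a1 higher in both tissues, though past 2-fold in spleen only in the mutant. Clec12a had 297 and 150, 228 and 235, and 259 and 264, without reaching 2-fold. The tissue tables were normalized separately and no difference between tissues was tested.

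The other spleen members with high enough levels were mostly lower. Clec2i went from 226 to 98.2 in wild type, from 289 to 39.2 in mutants and from 290 to 61.7 in knockouts, while Clec2d went from 662 to 1120, from 676 to 933 and from 714 to 983. Clec14a had 63.8 and 16.4, 59.5 and 19.9, and 58.7 and 19.4. Clec4g (LSECtin), a receptor of sinusoidal endothelium, had 19.9 and 5.95, 50.9 and 21.9, and 64.3 and 4.37. Clec2i and Clec14a passed 2-fold downward in each genotype, as did Clec4g. Clec10a (MGL1), a galactose receptor of macrophages, had 27.5 and 11.1, 26.4 and 3.62, and 25 and 8.6. Clec3b had 35.3 and 22.5, 18.9 and 39.9, and 25.7 and 51.6, and Clec16a stayed between 99.1 and 127. Antisense or overlapping genes lie at Clec2i (BC035044), Clec4g (Gm16553) and Clec16a (Gm15558), and whether reads were counted by strand is not stated in the sources used here.

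Counted over spleen, 2 of 22 members with a mean of at least 10 were at least 2-fold higher and 12 lower in wild type, 5 and 7 of 21 in mutants, and 2 and 10 of 22 in knockouts. Over all genes the shares were 13.5% and 14.8%, 15.3% and 16.7%, and 16.6% and 18.7%. The members' shares higher, 9.09%, 23.8% and 9.09%, lay on either side of this, and their shares lower, 54.5%, 33.3% and 45.5%, above it. The 20 members with a mean of at least 10 over all 15 spleen libraries had median log2 ratios of -1.02, -0.12 and -0.36, beside 0.04, 0.02 and 0.00 for all genes under that filter. Pancreatic acinar markers summed to 2119 with PBS and 27742 with LPS in wild type spleen, 33302 and 41904 in mutants, and 5109 and 17180 in knockouts. Hepatocyte markers summed to 2075 and 378, 50.1 and 3279, and 266 and 4614. How far such tissue entered the members' spleen values was not tested.

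**Figure D3:**
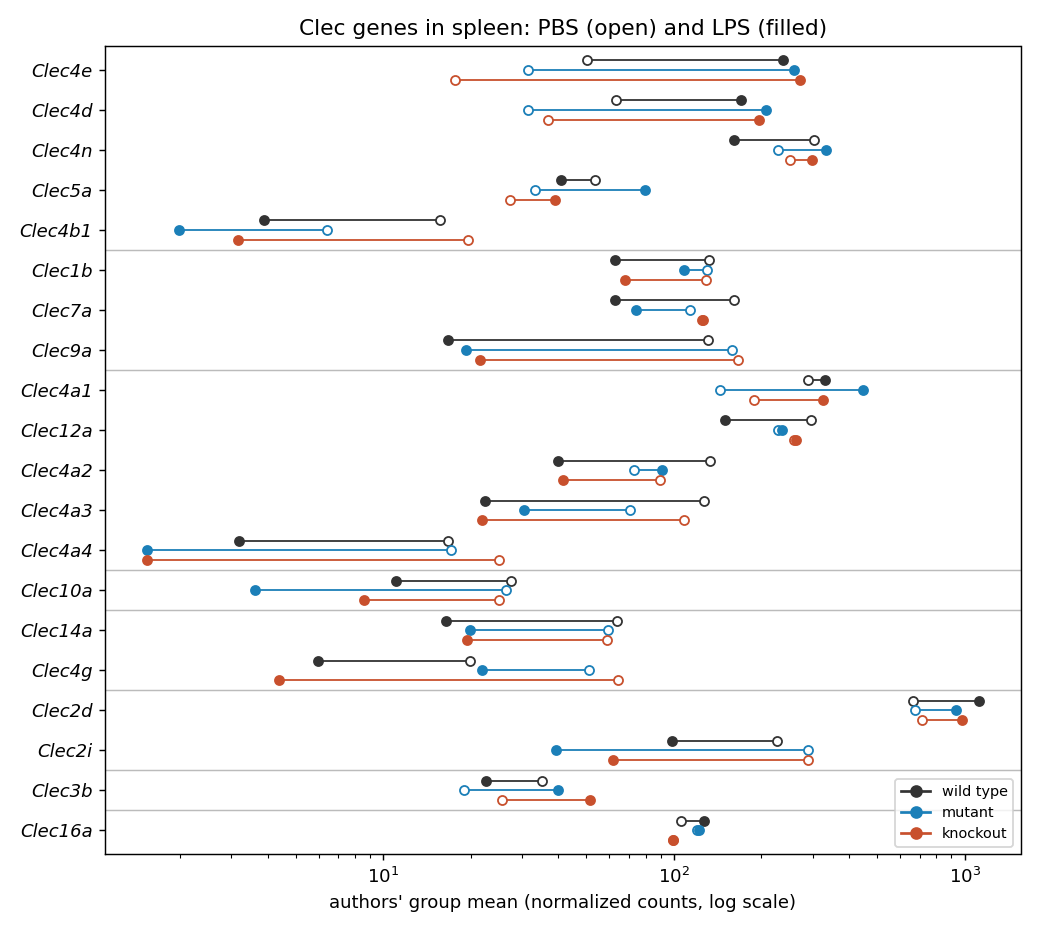
Authors' group means (normalized counts, log scale) in spleen of the 20 Clec genes described gene by gene, with PBS (open) and LPS (filled); black is wild type, blue the mutant, red the knockout, and lines part the roles. Clec4e and Clec4d have their LPS means to the right in all 3 genotypes, and Clec9a, Clec4a3 and Clec2i to the left.

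Gene order along chromosome 6 gave no single direction per cluster. In lung both ends of the Clec4 cluster had the high ratios: Clec4a1 at the first end had log2 ratios of 2.90 (wild type), 2.73 (mutant) and 3.39 (knockout), and Clec4d and Clec4e at the last end between 3.07 and 4.92. Clec4a2, Clec4a3 and Clec4n, inside the cluster, ran from 0.53 to 1.94. Also inside, with lung means of 10.5 or less, Clec4a4 ran from 1.07 to 2.45, Clec4b1 from -0.99 to -0.43 and Clec4b2 from -0.43 to 0.56. In spleen the last end kept ratios from 1.41 to 3.87, while Clec4a3 and Clec4a4 ran from -1.18 to -3.36. In the cluster from Clec12a to Clec7a, lung ratios did not share a sign. Clec12a was between 0.23 and 1.68, Clec12b between -2.80 and -1.90, and Clec1b between 0.96 and 1.78. Clec9a was between -2.03 and -1.44, Clec1a between -5.14 and -3.57, and Clec7a between -0.51 and 0.84.

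**Figure D4:**
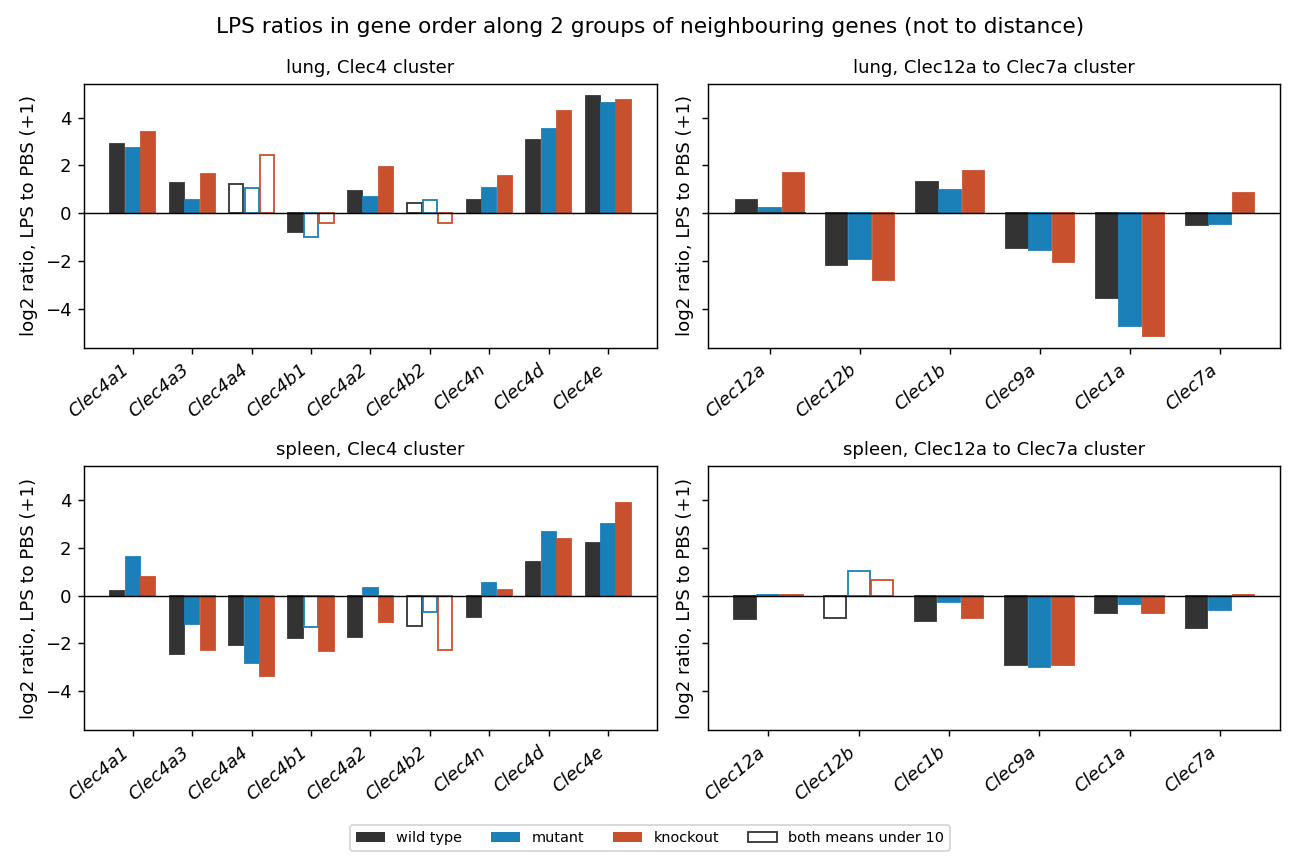
Log2 ratio of the LPS mean to the PBS mean (each plus 1) in gene order along the Clec4 cluster (left) and the cluster from Clec12a to Clec7a (right), in lung (top) and spleen (bottom); black is wild type, blue the mutant, red the knockout, and open bars have both means under 10. In lung the ends of the Clec4 cluster have the tall bars, and the second cluster holds bars of both signs.

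Between genotypes, 1 member was called in 1 of 12 comparisons. In lung with LPS, Clec12a (chr6:129342691-129365303, + strand) had means of 193 in wild type, 159 in mutants and 335 in knockouts. In the authors' deposited table it rose by 1.05 (log2) in the knockout over the mutant with an adjusted p of 0.00125. That comparison called 0.243% of all tested entries, and 1 of the 23 members tested. Over wild type, the authors' deposited table gave Clec12a 0.77 with an adjusted p of 0.0583, which misses the threshold. With PBS its lung means were 133, 135 and 104, so the knockout was the lowest of the genotypes without LPS and the highest with it. Neutrophil markers summed to 55333, 63816 and 67503 and monocyte markers to 41134, 40413 and 44333 in these LPS groups, beside the sex-linked and other organs' values above. B cell markers summed to 702, 1101 and 1551, and 2 of 10, Pax5 and Bank1, were called higher in the knockout over wild type and none in the knockout over the mutant in the authors' deposited table. For all of these lists, the part in the Clec12a difference was not tested.

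Clec7a showed the same arrangement of means without being called. Its lung LPS means were 252, 253 and 499, and the authors' deposited table gave the knockout 0.95 over wild type, adjusted p 0.0917, and 0.95 over the mutant, adjusted p 0.127. Clec11a had LPS means of 30.5, 37.6 and 9.19, with -1.39 and -1.69 in the authors' deposited table at adjusted p of 0.296 and 0.187. The knockout thus held the highest Clec12a and Clec7a and the lowest Clec11a mean. Of these only Clec12a, in the knockout over the mutant, was called at 0.05. Clec4e and Clec4a1 differed little: their LPS means ran from 1160 to 1220 and from 676 to 757. The comparisons of both lines with wild type share the wild type libraries, and those of the knockout share the knockout libraries.

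**Figure D5:**
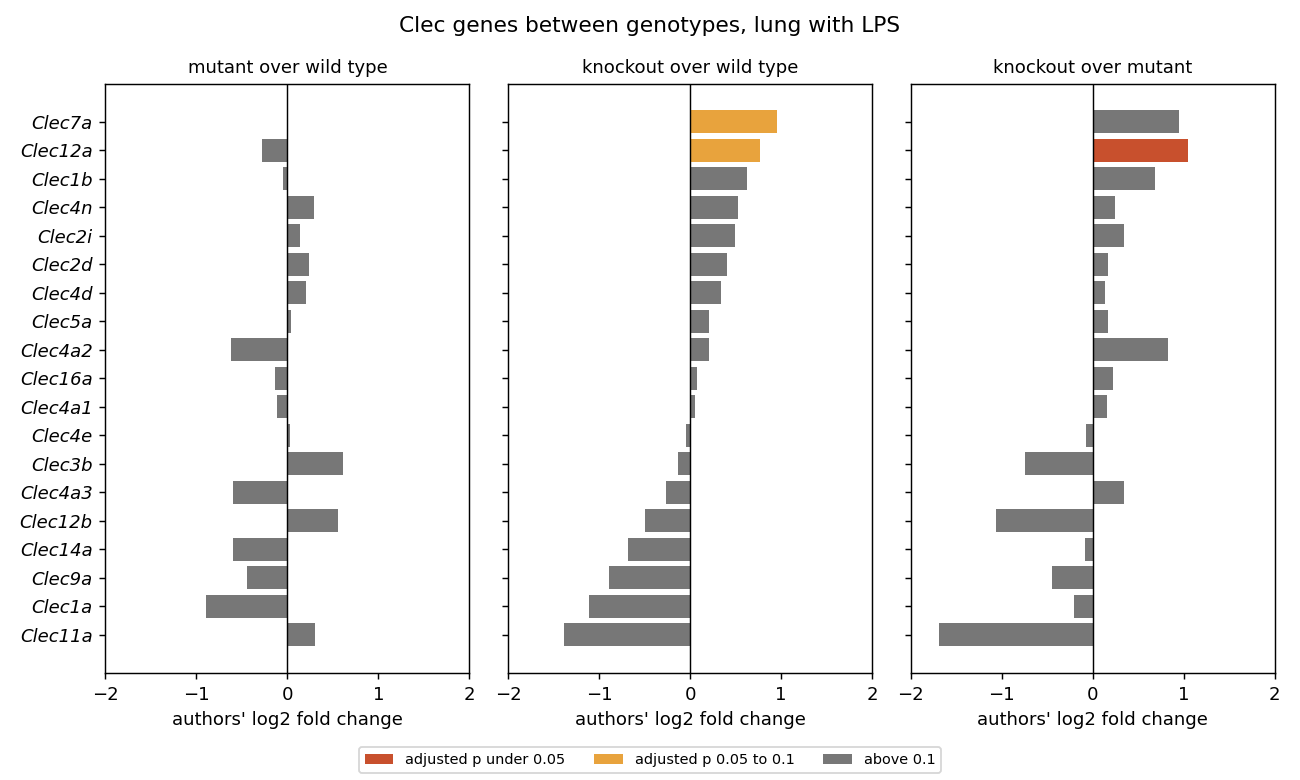
Log2 fold changes of the authors' deposited table for 19 Clec genes in lung with LPS: mutant over wild type (left), knockout over wild type (middle) and knockout over mutant (right), coloured by adjusted p. Clec12a in the right panel, at 1.05, is the 1 bar under 0.05; Clec12a and Clec7a in the middle panel lie between 0.05 and 0.1.

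No member was called in the other 11 comparisons (DESeq2, per the submitters' processing notes). The authors' own marks reach an adjusted p of 0.1. They also took in Clec12a and Clec7a for the knockout over wild type in lung with LPS. In lung with LPS, 25 members were tested for the mutant over wild type and 22 for the knockout over wild type, where 0.0715% and 0.441% of all entries were called; the smallest adjusted p among members were 0.972 and 0.0583 in the authors' deposited table. In lung with PBS 29, 30 and 28 members were tested for the mutant over wild type, the knockout over wild type and the knockout over the mutant, beside 0.00524%, 0.0421% and 0.0523% of all entries called. In spleen with LPS 30, 27 and 17 were tested, beside 0.00545%, 0.0241% and 0.177%. In spleen with PBS 30, 1 and 29 were tested, beside 0%, 0.160% and 0%, so the knockout there went nearly untested against wild type. The smallest adjusted p of a member in spleen was 0.226 in the authors' deposited table, for the knockout over the mutant with LPS. With so few calls anywhere, a count of 0 among about 30 genes is near the background. Counts at an unadjusted p cannot be given from adjusted values.

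The LPS ratios themselves were set side by side between genotypes, with no test. In lung, 1 of 21 members differed by at least 1 (log2) between mutant and wild type, 6 of 22 between knockout and wild type, and 6 of 21 between knockout and mutant, beside 4.76%, 7.03% and 5.17% of all genes. Clec7a had log2 ratios of -0.51 (wild type), -0.44 (mutant) and 0.84 (knockout), and Clec12a, in the same order, 0.54, 0.23 and 1.68. Clec11a had -1.70, -1.15 and -3.17, and Clec1a -3.57, -4.73 and -5.14. Clec4d and Clec4n were the others with a larger ratio in the knockout than in wild type, by 1.20 and 1.03. Against the mutant these were Clec4a2 and Clec4a3, by 1.25 and 1.07, and Clec4g had a smaller one by -1.68. The differences rest in part on lower PBS means in the knockout, such as 65.7 for Clec4d against 119 in wild type.

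In spleen 10 of 22 members differed by at least 1 (log2) between mutant and wild type, 8 of 22 between knockout and wild type and 4 of 22 between knockout and mutant, beside 12.7%, 19.3% and 9.66% of all genes. The 8 with a larger ratio in the mutant than in wild type were Clec3b, Clec4a1, Clec4a2, Clec4a3, Clec4d, Clec4n, Clec5a and Clec12a. The widest of these was Clec4a2, with log2 ratios of -1.71 in wild type, 0.32 in mutants and -1.09 in knockouts. Clec3b, Clec4n and Clec12a were on that list for the knockout as well, with Clec4e and Clec7a. Smaller ratios than in wild type were found for Clec2i and Clec10a in the mutant, by -1.66 and -1.33, and for Clec2i, Clec4a4 and Clec4g in the knockout, by -1.02, -1.28 and -2.02. Against the mutant, the knockout had a larger ratio for Clec10a, by 1.13, and smaller ones for Clec4a2, Clec4a3 and Clec4g, by -1.41, -1.07 and -2.42. Neutrophil markers summed to 29755 in the mutant spleen with LPS, against 11604 in wild type and 9630 in knockouts, and to 4228, 6454 and 3545 with PBS. Red pulp macrophage markers summed to 11625, 7897 and 10360 with LPS in the mutant, wild type and knockout, and 11405, 12700 and 12446 with PBS. B cell markers summed to 11726 with PBS and 8630 with LPS in wild type, 14612 and 5208 in mutants, and 15441 and 4990 in knockouts, with 4, 7 and 8 of 10 at least 2-fold lower. T cell markers summed to 2925 and 2093, 3654 and 1317, and 3732 and 1207, with 4, 9 and 8 of 10 lower. Their part in the members' differences was not tested, and the pancreatic, hepatocyte and sex-linked values above differ between the same groups.

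The partners of the family were followed on lists of 18 adaptors and kinases, 6 inhibitory phosphatases and regulators, 9 measured ligands and partners and 16 outputs of Syk and Card9. In wild type lung 11 of the 18 adaptors and kinases were at least 2-fold higher with LPS and none lower. Fcer1g, the FcR gamma adaptor, went from 548 to 2840 there, and Malt1, which relays the Card9 signal, from 299 to 1510. Card9 itself went from 112 to 64.9. Of the outputs 14 of 16 were higher in wild type lung, Cxcl2 from 14.2 to 3060 and Il6 from 6.72 to 1100, genes that Toll-like receptor 4 is also known to drive. The counts of adaptors and kinases in mutant and knockout lung were 11 higher and 1 lower, and 11 and 0. In spleen, of the same 18, 1 was higher and 1 lower in wild type, 2 and 2 in mutants, and 3 and 5 in knockouts. Of the outputs in spleen 11 of 15, 10 of 14 and 13 of 15 were higher. So 11 of 18 adaptors and kinases were higher in each lung genotype and at most 3 in spleen. Over all genes 13.9%, 15.5% and 16.9% were higher in lung. In spleen 13.5%, 15.3% and 16.6% were higher and 14.8%, 16.7% and 18.7% lower. Of the 6 phosphatases and regulators 2, 3 and 1 were higher in lung, and 0, 1 and 1 lower in spleen. Of the 7 ligands and partners with a mean of at least 10 in lung, 1, 2 and 1 were higher and 2 lower in each genotype. Spleen had 5 of 8, 4 of 7 and 4 of 7 lower and 0, 1 and 1 higher.

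For the ligands, Pdpn, the podoplanin gene and ligand of CLEC-2, stood at 1840 and 2690 in wild type lung. Klrb1f, the NKR-P1F receptor gene that binds Clec2 proteins, was at 21.4 and 4.21 in wild type spleen. Of the 49 measured genes on the 4 lists, 1 was called between genotypes, Ptgs2 in the knockout's 4 lung comparisons. Ptgs2 is the neighbour of the targeted lincRNA-Cox2. With LPS those comparisons called 0.441% (over wild type) and 0.243% (over the mutant) of all tested entries, and with PBS 0.0421% and 0.0523%. For the knockout over wild type in spleen with PBS, 24 of the 49 were tested. Ptgs2 had lung means with LPS of 1397 in wild type, 1058 in mutants and 208 in knockouts; in the authors' deposited table it fell by 2.70 (log2) in the knockout over wild type, adjusted p 3.64e-31.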

How the data were processed

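The submitters' processing notes name STAR 2.5.3a, Bowtie2, SAMtools, bedtools and DESeq2 with the mm10 genome, without order or settings. Each tissue's deposited table, per the file headers, holds a normalized signal per gene as 6 group means, most rounded to 3 significant digits, a log2 fold change of the authors for each of 6 genotype comparisons, and an adjusted p-value, treated here as a score of the authors. The deposited folds are not the plain ratios of the deposited means. Many lie nearer 0, but not all. For Clec4a4 in spleen with LPS both lines had a mean of 1.54, and the knockout over mutant fold was -0.43 (log2). The LPS ratios rest on the means alone. Of 19476 lung and 18850 spleen lines, 6 and 5 were broken and left out, and 1026 split spleen symbols were rejoined. Group means summed to 7.44 M to 10.5 M in lung and to 3.56 M to 5.02 M in spleen, and the depth of single libraries was not used. The labels do not say that libraries are separate animals, so the authors' p-values may measure technical spread, and they give no batch.

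Ratios used a pseudocount of 1 and a minimum mean of 10 (Python 3.11.15, tested on simulated data). Values in all groups are given for members with a mean of at least 50 in a group, at least 4-fold apart between LPS and PBS, or called. For the other members counts and ranges are given. The other genes named come from the lists of partners and markers; Card9, Pdpn, Klrb1f, Pax5, Bank1 and the lung values of Clec4b1 were named after their values were seen. The members and lists were chosen with earlier results of these data known.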

Additional observations from a re-analysis of the deposited data

How the results depend on the processing

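No paired analysis was possible because the tables hold group means and no library values; for the same reason no library could be left out. Of the 12 genotype comparisons, the 1 member call became 3 at an adjusted p of at most 0.1 in the authors' deposited tables, and 22 member differences passed a 2-fold ratio of means. For the other settings only counts that changed by more than 1.5 times are listed, and the rest changed less or not at all. At 3-fold the members lower with LPS numbered 4 in wild type and 4 in mutant lung. In spleen those lower numbered 7 (wild type), 4 (mutant) and 6 (knockout), and those higher 1 and 3 in wild type and mutant. At 1.5-fold 8 were higher in mutant lung and 4 in knockout spleen. With a minimum mean of 1, 8 were higher in mutant lung; with a minimum of 50, 7 and 6 were lower in wild type and knockout spleen. With a pseudocount of 5 the members whose LPS ratios differed numbered 5 for knockout against wild type and 2 for knockout against mutant spleen. These changes follow from stricter or looser limits or from the larger pseudocount. Of 348 recomputed values of single members 346 kept their side of the limit, 1 weakened past it, 1 strengthened and none reversed. A filter on the mean over all 15 libraries, chosen after seeing the data, left all 12 LPS counts within 1.5 times.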

Other observations

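Other genes with a C-type lectin domain, 28 of them outside the Clec symbols, were read in the same way. The selectins, which slow leukocytes on vessel walls, had the widest ratios in lung. Sele (E-selectin) went from 2.75 with PBS to 351 with LPS in wild type, from 5.54 to 222 in the mutant and from 6.5 to 236 in the knockout, and Selp (P-selectin) from 84 to 3350, from 47.5 to 3300 and from 54.4 to 3640. Cd69, an early activation marker of lymphocytes, went from 45.5 to 523, from 73.5 to 751 and from 60.8 to 895 in lung and from 147 to 1330, from 162 to 1470 and from 151 to 2340 in spleen. In wild type lung 7 of 20 such genes with a mean of at least 10 were at least 2-fold higher and 4 lower. Mutant lung had 7 and 2 of 19, and knockout lung 7 and 5 of 20. In spleen the counts were 5 and 7 of 18 in wild type and 5 and 5 of 19 in each line. Over all genes 13.9%, 15.5% and 16.9% were higher and 14.3%, 16.0% and 17.7% lower in lung. In spleen 13.5%, 15.3% and 16.6% of all genes were higher and 14.8%, 16.7% and 18.7% lower. None of the 28 was called between genotypes in the 12 comparisons of the authors' deposited tables. Not all were tested each time. In spleen, 5 were tested for the knockout over wild type with PBS and 15 for the knockout over the mutant with LPS. Those comparisons called 0.160% and 0.177% of all tested entries.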
